A study of Homo sapiens with 96 samples.

Results

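The 9 genes described here encode enzymes and enzyme subunits that modify the wobble uridine of tRNAs: ELP2, ELP3, ELP4, ELP5, ELP6, URM1, CTU1, CTU2 and ALKBH8. They were taken by symbol from a table of 44659 gene entries, in which all 9 were found, and followed over 96 libraries in 32 groups of 3. The libraries came from A375 cells, an established human melanoma line, and were made from cytoplasmic RNA with QuantSeq, an assay that reads the 3′ end of polyadenylated transcripts, so that read number does not scale with transcript length. Cells were kept for 18 h in DMSO (control cells) or in 500 nM vemurafenib plus 500 nM cobimetinib, inhibitors of BRAF and MEK called MAPKi together. To these cells vehicle, cycloheximide at 100 µg/ml (CHX, an inhibitor of translation elongation), triptolide at 25 µM (T, an inhibitor of transcription) or both (TCHX) was then added, and they were harvested at 0, 1, 3 or 5 h. The design addresses 3 questions about each mRNA: its level after MAPKi, its decay once transcription is blocked, and how far that decay depends on translation. All groups are 1 cell line, and the labels do not say whether the replicates R1 to R3 were separate cultures, so p-values measure the spread between these libraries.

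The wobble uridine is the first base of the anticodon, which reads the last base of the codon. In the cytosol it receives a carboxymethyl group from the Elongator complex, a methyl ester from ALKBH8, and, in the tRNAs that read AAA, GAA and CAA, a sulfur atom that is passed along a chain ending at URM1, CTU1 and CTU2. Loss of these modifications is known to slow decoding of A-ending codons, and the pathway is known to support the translation of selected mRNAs in BRAF-mutant melanoma.

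Total counts per library ran from 2381351 to 12520154. In the vehicle arm at 0 h, the MAPK target genes DUSP6, SPRY2, SPRY4, ETV4 and ETV5 were all 5 lower in MAPKi-treated than in control cells. Of 6 melanoma markers, SOX10, MITF and S100B had at least 314 counts in every library, whereas TYR had at most 9 and MLANA at most 17. Of 8 markers of other cell types, CD3E, KRT5 and CDH5 were at 0 in every library, and the list summed to between 0.887 and 9.51 CPM. CPM is a count relative to the TMM-scaled total of its library. The 96 pairs of libraries of the same group differed by more than counting noise, with a chi-square per degree of freedom of at least 3.13. No library was thus deposited again within its group. Pairs of different groups were not compared in this way. The difference within groups does not show that the libraries came from separate cultures.

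Among the Elongator subunits, ELP2 (a WD40 scaffold subunit, GRCh38 chr18:36129444-36180557, plus strand) had between 165 and 1121 counts per library. ELP3, the catalytic subunit (chr8:28089673-28191156, plus strand), had between 69 and 548. ELP4 and ELP6, which with ELP5 form the accessory ring of the complex, lie at chr11:31509755-31790324 (plus strand) and chr3:47495640-47513712 (minus strand). ELP6 had between 218 and 819 counts, and ELP4 between 4 and 146, which makes it the least precisely measured of the 8 genes tested. ELP5 (chr17:7251416-7259940, plus strand) had 206 counts over all libraries, at most 12 in any of them, and was above 0 in 71. A repeat entry of its name held 7 more counts. ELP5 did not pass the filter on low counts and is not part of any comparison, so that all counts of members tested below are out of 8.

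Of the thiolation genes, URM1 (a ubiquitin-like sulfur carrier, chr9:128371361-128392016, plus strand) had between 514 and 2641 counts per library. CTU1 and CTU2, the subunits of the enzyme that thiolates the tRNA, lie at chr19:51097606-51108409 (minus strand) and chr16:88706483-88715396 (plus strand) and had between 5 and 199 and between 15 and 391 counts. ALKBH8, the methyltransferase (chr11:107502727-107565742, minus strand), had between 43 and 410. The sources used here do not give the strand setting of the counting. Exons of other genes cover 333 of the last 500 bases of ELP2, 195 of those of ELP4, 59 of those of CTU2, 38 of those of ELP5 and 10 of those of URM1. Counts of these genes are therefore uncertain. ELP3, ELP6, CTU1 and ALKBH8 share no exonic base with another annotated gene.

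After 18 h of MAPKi, CTU2, ALKBH8, CTU1 and ELP2 were lower than in control cells, and 0 of the members tested were higher. These are 4 of 8 members, where 45.9% of all 14948 genes tested were called at an adjusted p under 0.05, 24% lower and 21.9% higher (edgeR quasi-likelihood test, n = 3 per group, vehicle arm at 0 h). The median log2 difference of the members was −0.43, and that of all genes was 0.03.

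CTU2 had 29.0, 25.4 and 34.1 CPM in control cells and 14.1, 12.3 and 15.6 CPM in MAPKi-treated cells. Every MAPKi library lay below every control library. The fold was 2.10 lower, a log2 difference of −1.07 with a standard error of 0.26 (adjusted p = 0.000448, edgeR). ALKBH8 had 23.8, 34.4 and 32.3 CPM in control cells and 18.4, 15.7 and 10.6 CPM after MAPKi, again without overlap, and its log2 difference was −1.03 (SE 0.20, adjusted p = 8.22e-06, edgeR).

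CTU1 was at 16.2 ± 2.79 CPM in control cells and at 9.89 ± 0.228 CPM after MAPKi (SD, n = 3), with a log2 difference of −0.71 (SE 0.25, adjusted p = 0.0170, edgeR), which did not pass without replicate 2 (−0.55). ELP2 was at 74.5 ± 2.23 and 50.3 ± 3.95 CPM, with a log2 difference of −0.57 (SE 0.11, adjusted p = 2.40e-05, edgeR). The groups of both genes did not overlap. ELP6 (log2 difference −0.29, adjusted p = 0.0554), ELP3 (−0.21), ELP4 (0.41) and URM1 (0.18) did not pass the test, although ELP6 passed without replicate 2 (−0.40, adjusted p = 0.0369, edgeR). URM1, at 157 ± 6.96 and 178 ± 6.42 CPM, did not pass although its MAPKi libraries all lay above its control libraries at this time. The share of all genes whose groups of 3 did not overlap was not counted.

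The other 3 arms at 0 h, which were harvested directly after the inhibitors were added, gave further libraries of both pretreatments. ALKBH8 was lower in MAPKi-treated cells in the CHX, T and TCHX arms by −1.03, −1.13 and −1.04 on the log2 scale. For CTU2 the values were −0.90, −1.04 and −0.89, and for ELP2 −0.35, −0.44 and −0.59. All 9 of these values passed the test, where 47.2%, 46.3% and 45.6% of all genes were called in the 3 arms and 24%, 24.3% and 23.2% lower. ELP6 was lower in the CHX (−0.61) and TCHX (−0.50) arms and did not pass in the T arm (−0.20), and CTU1 passed in 0 of these 3 arms (−0.33, −0.53 and −0.49). URM1 was higher in the T arm (0.31, adjusted p = 0.0306, edgeR), where 22% of all genes were called higher, and did not pass in the other two.

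Averaged over the 4 harvest times of the vehicle arm, with 12 libraries per pretreatment, 6 of 8 members were lower in MAPKi-treated cells and 0 were higher, where 69% of all genes tested were called, 33.1% lower and 35.8% higher. CTU2 had the largest log2 difference of the members, −1.16 (SE 0.13, adjusted p = 1.30e-12, edgeR), with 19.1 to 39.4 CPM in control libraries (median 30.1) and 10.6 to 20.02 CPM in MAPKi libraries (median 12.9). Of the MAPKi libraries, 11 of 12 lay below all control libraries. ALKBH8 ranged from 20.8 to 34.4 CPM (median 24.6) in control and from 10.6 to 18.4 CPM (median 15.2) in MAPKi libraries, which did not overlap, and its difference was −0.82 (SE 0.10).

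ELP2 did not overlap either, at 60.2 to 85.9 CPM (median 75.8) against 41.6 to 54.5 CPM (median 50.5), with a log2 difference of −0.59 (SE 0.06). CTU1 differed by −0.76 (SE 0.13) and ELP6 by −0.43 (SE 0.06). The smallest difference that passed was that of ELP3, −0.23 (SE 0.07, adjusted p = 0.00584, edgeR), and it did not pass without replicate 3 (−0.18). ELP4 (0.30) and URM1 (0.10) did not pass, although URM1 passed with the size factors of DESeq2 (0.14, adjusted p = 0.0459).

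**Figure D1:**
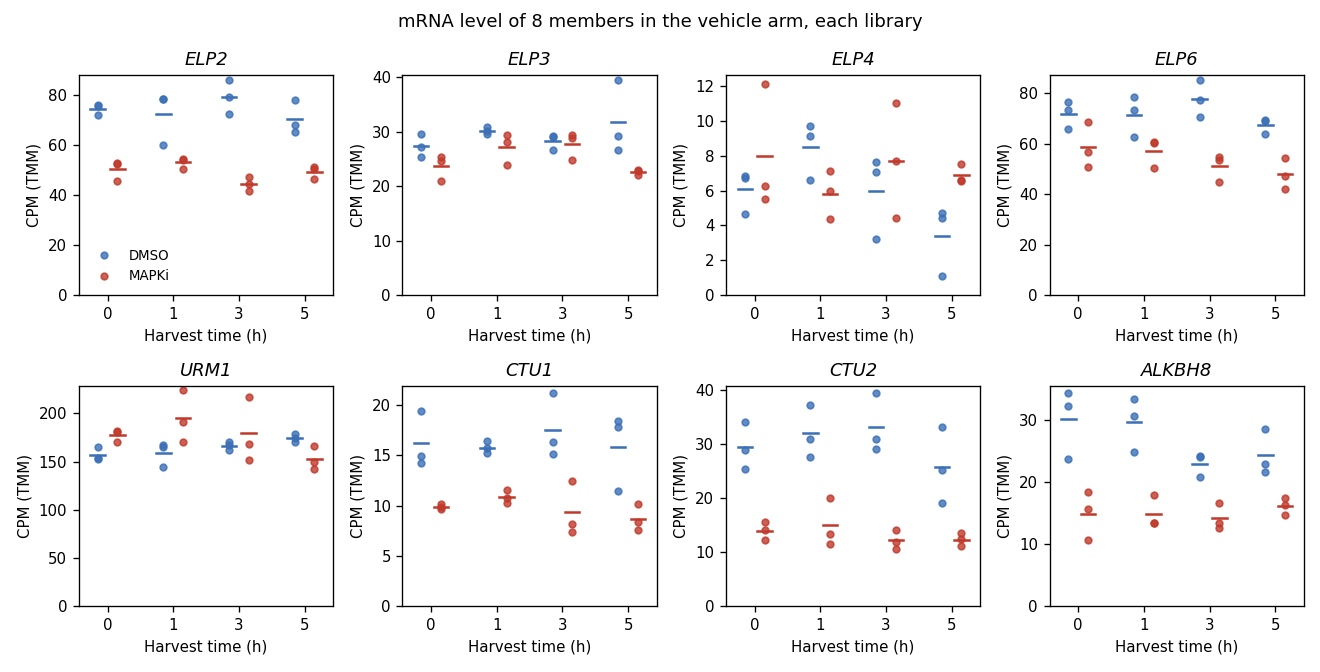
Level of 8 members in the vehicle arm, in CPM (y axis, from 0) against harvest time in hours (x axis), with 1 point per library, control cells in blue and MAPKi-treated cells in red, and a line at the mean of each group of 3. The points of ALKBH8 and ELP2 do not overlap between pretreatments, those of CTU2 overlap by 1 library, and those of ELP4 and URM1 are mixed.

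Between 0 h and 5 h, 0 of 8 members were called in control cells and 0 of 8 in MAPKi-treated cells (edgeR, with 1.06% and 3.34% of all genes called, and 0 members called with DESeq2). At an unadjusted p under 0.05 the counts were 0 and 1, the latter ELP6 at −0.29 in MAPKi-treated cells. The largest log2 differences in control cells were those of ELP4 (−0.74, SE 0.42), the member with the fewest counts of those tested, and ALKBH8 (−0.32, SE 0.19), so that changes of this size are not excluded by the test.

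The pathway around the members was described with 10 further genes of wobble uridine modification, of which 8 could be tested, since KTI12 had 0 counts and TRMT9B at most 6 in any library. In the average over the vehicle times, 5 of these 8 were lower and 1 was higher in MAPKi-treated cells. Of all genes tested, 69% were called in this contrast, 33.1% lower and 35.8% higher. GTPBP3, which acts on mitochondrial tRNAs together with MTO1, had the largest log2 difference (−1.31, SE 0.09). TRMU, which thiolates mitochondrial tRNAs, differed by −0.80 and MOCS3, which activates URM1, by −0.57. TRMT112, the partner subunit of ALKBH8, differed by −0.46 and DPH3, a factor required for Elongator function, by −0.40. NFS1, the desulfurase at the head of the sulfur chain, was higher by 0.32 (SE 0.11, adjusted p = 0.00816, edgeR). MPST (0.12) and MTO1 (−0.09) did not pass. Of 59 other tRNA modification enzymes tested, 36 were lower and 6 higher, with a median log2 difference of −0.40, against −0.51 for the members and 0.05 for all genes.

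Promoters of the 4 members that were lower at 0 h are shown because these genes were called together. The sequences are those of RefSeq on GRCh38.p14, from 250 bases before to 50 bases after a transcription start, written on the strand of the gene, and 7 of the 9 members had at least 1 in that table. Capitals mark matches on either strand to the core of ETS factor sites, CGGAAG (reverse complement CTTCCG), to the E-box CACGTG, to the cAMP response element TGACGTCA and to the AP-1 site TGANTCA. No 2 matches overlap. The regions are chr16:88706253-88706552 for CTU2, chr11:107565686-107565985 for ALKBH8, chr19:51108360-51108659 for CTU1 and chr18:36129649-36129948 for ELP2.
CTU2: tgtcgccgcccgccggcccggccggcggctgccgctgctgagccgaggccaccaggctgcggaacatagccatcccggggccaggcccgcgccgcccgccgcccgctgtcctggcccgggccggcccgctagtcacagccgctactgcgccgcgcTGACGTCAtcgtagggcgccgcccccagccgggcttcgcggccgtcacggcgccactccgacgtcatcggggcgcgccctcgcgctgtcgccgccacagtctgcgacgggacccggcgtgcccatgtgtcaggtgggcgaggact
ALKBH8: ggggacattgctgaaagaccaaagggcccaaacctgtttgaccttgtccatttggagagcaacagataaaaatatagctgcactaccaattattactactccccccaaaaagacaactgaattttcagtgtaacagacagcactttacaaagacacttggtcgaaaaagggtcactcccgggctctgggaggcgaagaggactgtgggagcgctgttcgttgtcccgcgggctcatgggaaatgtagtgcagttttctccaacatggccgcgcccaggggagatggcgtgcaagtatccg
CTU1: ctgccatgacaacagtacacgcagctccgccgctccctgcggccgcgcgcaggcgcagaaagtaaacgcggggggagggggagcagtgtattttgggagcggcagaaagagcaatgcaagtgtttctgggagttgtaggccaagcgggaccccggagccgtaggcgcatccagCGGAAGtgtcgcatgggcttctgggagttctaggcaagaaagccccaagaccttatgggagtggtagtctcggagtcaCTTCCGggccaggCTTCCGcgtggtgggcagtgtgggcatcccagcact
ELP2: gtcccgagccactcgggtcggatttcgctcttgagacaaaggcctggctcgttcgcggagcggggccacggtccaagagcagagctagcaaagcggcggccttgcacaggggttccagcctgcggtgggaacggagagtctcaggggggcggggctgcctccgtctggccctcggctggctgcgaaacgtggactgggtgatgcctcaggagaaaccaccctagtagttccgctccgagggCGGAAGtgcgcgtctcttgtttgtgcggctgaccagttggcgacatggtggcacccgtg

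CTU1 held 3 matches to CGGAAG and ELP2 held 1, where 19.5% of all 35116 promoters in the table held at least 1. CTU2 held 1 match to TGACGTCA, which 1.85% of the promoters hold. ALKBH8 held none of the 4 motifs, and 0 of these 4 promoters held CACGTG (7.26% of all) or TGANTCA (7.71% of all). The 4 promoters thus had no motif of this set in common. Promoters of other members held the same motifs. CGGAAG was also found for ELP4 and ELP6, which were not called in the vehicle arm at 0 h, and for ELP5, which was not tested. TGACGTCA was also found for ELP5. A match is a run of letters and was not tested for binding.

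The members' own coding sequences differed in how far they use the codons that the modified tRNAs read. CTU1 has 0 AAA, 2 GAA, 1 CAA and 0 AGA codons among 348, and CTU2 has 1, 4, 5 and 4 among 515. These 4 codons made up 0.862% and 2.72% of their codons, against a median of 6.78% over 19701 coding genes. In ALKBH8 and ELP3 the share was 11.9% and 11.7%, and in ELP2 9.93%. Codons that end in G or C made up 93.4% of CTU1, a share higher than in 99.5% of coding genes, and 40.2% of ALKBH8. In the share of these 4 codons, CTU2 lay below the median of coding genes and ALKBH8 above it. A relation between codon use and the difference after MAPKi was not tested.

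Blocking translation alone raised several members. Averaged over 3 and 5 h, CHX against vehicle called 2 of 8 members higher and 0 lower in control cells, where 31.7% of all genes were called, 18.3% higher and 13.4% lower. In MAPKi-treated cells 5 of 8 were higher and 0 lower, where 29.8% were called, 15.9% higher and 13.9% lower (edgeR, n = 6 per side). ELP2 and ELP3 passed in both. ELP2 in control cells had 87.5, 89.2 and 91.0 CPM at 3 h and 125, 111 and 105 CPM at 5 h of CHX, against 74.8 ± 7.62 CPM (SD, n = 6) in vehicle. That is a log2 difference of 0.43 (SE 0.08, adjusted p = 6.94e-06, edgeR). ELP3 rose by 0.48 in control cells and by 0.45 in MAPKi-treated cells.

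ALKBH8 in MAPKi-treated cells had 22.6, 19.6 and 20.9 CPM at 3 h and 30.7, 28.8 and 29.2 CPM at 5 h of CHX, against 15.2 ± 1.92 CPM (SD, n = 6) in vehicle, without overlap. The log2 difference was 0.71 (SE 0.14, adjusted p = 2.20e-05, edgeR), and in control cells, where it did not pass, it was 0.28 (adjusted p = 0.101). CTU2 rose by 0.52 (SE 0.19, adjusted p = 0.0286, edgeR) and CTU1 by 0.47 (SE 0.18, adjusted p = 0.0392, edgeR) in MAPKi-treated cells, against −0.03 and 0.19 in control cells, neither of which passed. The call of CTU2 in MAPKi-treated cells was lost without replicate 1, where its value was 0.60, and without replicate 2, where it was 0.30. That of CTU1 was lost without replicate 1 (0.46), 2 (0.51) or 3 (0.42) and without the filter on low counts (0.47). The call of ELP2 there was lost without replicate 1 (0.22), which left 2 members, where 20.1% of all genes were called. Without replicate 2, 3 members and 23.7% of all genes were called.

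The difference of the CHX effect between pretreatments was tested itself and called 0 of 8 members with edgeR and 0 with DESeq2, where 11.2% of all genes were called. At an unadjusted p under 0.05 it named 2, CTU2 (0.55, SE 0.26, adjusted p = 0.176) and ALKBH8 (0.42, SE 0.19, adjusted p = 0.154). ELP6, ELP4 and URM1 passed in neither pretreatment.

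Once transcription was blocked, the members separated. Counts were scaled here by size factors from 36 genes whose CPM rose at both 3 and 5 h of triptolide in these same libraries. This is stricter than the rule of the study, a rise at 3 or 5 h, which 526 genes met and under which the member calls in the contrasts with triptolide were the same except for 1 of URM1 given below. On this scale the median log2 difference of all genes, T at 3 and 5 h against vehicle at 0 h, was −0.47 in control cells and −0.59 in MAPKi-treated cells. Lower calls included 5 of 8 members in control cells, where 50% of all genes were called and 48.7% lower. In MAPKi-treated cells they included 6 of 8, where 57.4% were called and 56.1% lower. The share of the initial level, that of the vehicle arm at 0 h with the same replicate number, had a median over genes of 67.0% ± 1.49 in control cells and 60.4% ± 2.35 in MAPKi-treated cells at 5 h (SD, n = 3).

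CTU1 fell most among the members. In control cells 48.7%, 28.3% and 26.8% of its initial level remained after 5 h of triptolide, and in MAPKi-treated cells 6.62%, 5.53% and 7.52%. The lowest control library was more than 3 times above the highest MAPKi library. The MAPKi libraries rest on 7, 7 and 5 counts, against 74, 55 and 72 counts at 0 h. At 3 h the shares were 53.9%, 36.2% and 85.4% in control cells and 41.7%, 41.3% and 15.9% in MAPKi-treated cells, which overlap. At 1 h they were 99.2% ± 28.4 and 85.0% ± 14.6 (SD, n = 3).

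Over 3 and 5 h the log2 difference of CTU1 was −1.19 (SE 0.22, adjusted p = 4.58e-06, edgeR) in control cells and −2.73 (SE 0.27, adjusted p = 1.02e-14) in MAPKi-treated cells. CTU1 was the only member whose fall differed between the pretreatments at an adjusted p under 0.05, where 3.17% of all genes were called and 2.76% with a negative difference. The fall was 1.54 larger on the log2 scale after MAPKi (−1.54, SE 0.36, adjusted p = 0.00528, edgeR), and the median of all genes was −0.11. This call was lost without replicate 1 (−1.45, adjusted p = 0.110) and without replicate 3 (−1.30, adjusted p = 0.225), where 0.847% and 1.1% of all genes were called.

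ALKBH8 fell by 0.76 in control cells and by 0.97 in MAPKi-treated cells on the log2 scale. ELP2 fell by 0.60 and 0.79, ELP6 by 0.40 and 0.72, and ELP3 by 0.41 and 0.52. The call of ELP3 in control cells was lost without replicate 2. With TMM scaling, which centres on most genes and called 33.2% and 40.2% of them, CTU1 alone still fell (−0.72 and −2.09), ALKBH8 and ELP2 did not pass, ELP3 turned to 0.06 and 0.12 and ELP6 to 0.08 in control cells, neither called.

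CTU2 did not pass in either pretreatment (−0.14 and −0.33). Of its initial level, 85.9%, 98.8% and 82.8% remained in control cells and 61.1%, 90.7% and 64.4% in MAPKi-treated cells at 5 h. URM1 retained 94.3% ± 8.89 and 86.0% ± 6.68 (SD, n = 3), which is more than 88.2% and 81.3% of all genes did. Its log2 difference was −0.26 in MAPKi-treated cells (adjusted p = 0.0253, edgeR), a call that was lost without replicate 3 and with the stable genes at 3 or 5 h (−0.20, adjusted p = 0.177), and it turned to 0.38 with TMM, where it was called higher, and to 0.10 with total counts. ELP4 (0.24 and −0.25) did not pass. The 3 genes of the thiolation branch thus lay apart, with CTU1 among the least retained 2.62% of all genes in MAPKi-treated cells at 5 h and URM1 well above the median. In the wider pathway, MOCS3 fell by 3.70 in control cells and fell by 4.31 in MAPKi-treated cells on the log2 scale, more than any of the members.

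**Figure D2:**
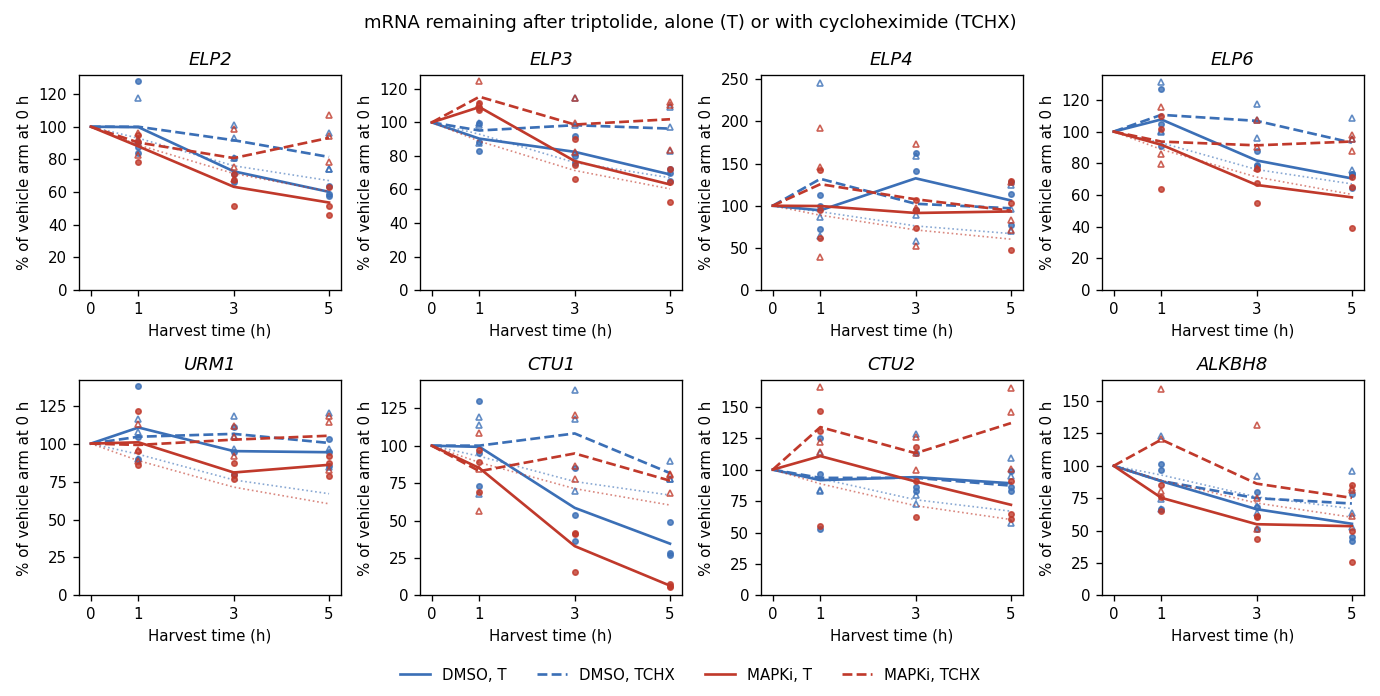
Share of each member's mRNA that remained after triptolide alone (T, solid lines and filled circles) or with cycloheximide (TCHX, dashed lines and open triangles), in percent of the vehicle arm at 0 h (y axis, from 0) against harvest time in hours (x axis), for control cells (blue) and MAPKi-treated cells (red). Lines join means of 3 replicates, symbols are single replicates and dotted lines are the median of all genes under triptolide alone; CTU1 reaches 6.56% in MAPKi-treated cells at 5 h and stays at 76.7% when translation is blocked as well.

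Adding cycloheximide to triptolide raised CTU1 in both pretreatments. In MAPKi-treated cells 80.9%, 80.5% and 68.6% of the initial level remained at 5 h of TCHX, against the 5.53% to 7.52% of triptolide alone. In control cells 77.6%, 77.9% and 89.6% remained. With both inhibitors the pretreatments overlapped in CTU1, unlike with triptolide alone at 5 h. The log2 difference of TCHX from T over 3 and 5 h was 1.07 (SE 0.19, adjusted p = 2.37e-06, edgeR) in control cells and 2.51 (SE 0.24, adjusted p = 2.13e-15) in MAPKi-treated cells. The difference between pretreatments, 1.44 (SE 0.31, adjusted p = 0.000723, edgeR), passed under all 9 alternatives tried, among them TMM (1.29).

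Over the members, TCHX was higher than T in 4 of 8 in control cells, where 28.9% of all genes were called and 28.4% higher. In MAPKi-treated cells 7 of 8 were higher, where 42% were called and 41.4% higher. The 36 scaling genes were chosen by their rise in the T libraries compared here, and no rise was asked of them under TCHX. That choice can itself lower T on this scale, so the excess of higher calls is not independent of it. The TDD index below uses the same scale. The median log2 difference of all genes was 0.23 in control cells and 0.34 in MAPKi-treated cells. ELP2 (0.38 and 0.58), ELP3 (0.35 and 0.52) and ELP6 (0.38 and 0.59) passed in both, and ALKBH8 (0.59), CTU2 (0.63) and URM1 (0.32) in MAPKi-treated cells. Without replicate 3 the count in control cells was 1, that of CTU1, where 20% of all genes were called, and ELP3 was lost there without any 1 replicate. In MAPKi-treated cells CTU2 was lost without replicate 1 and URM1 without replicate 2. With TMM scaling it was CTU1 alone in both pretreatments, where 22% and 34% of all genes were called, and URM1 in MAPKi-treated cells turned to −0.07, which did not pass.

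CTU2 in MAPKi-treated cells reached 146%, 165% and 101% of its initial level at 5 h of TCHX, against 61.1%, 90.7% and 64.4% under triptolide alone. In control cells it was at 95.1%, 109% and 57.8% with TCHX and at 82.8% to 98.8% with triptolide, which overlap. The TCHX effect differed between pretreatments by 0.66 (SE 0.25, adjusted p = 0.0922, edgeR), which did not pass, and passed without the filter on low counts (adjusted p = 0.0379). CTU1 was the only member called in that difference, where 7.11% of all genes were called and 6.82% with a positive difference. Of the 8 other wobble uridine genes, MTO1 was called in it (0.67, adjusted p = 0.0427, edgeR), and of 59 other tRNA modification enzymes 14 were called higher and 0 lower. MOCS3 was not called in it (0.74, adjusted p = 0.211, edgeR). Within each pretreatment, however, TCHX raised MOCS3 over T by more than it raised CTU1. The log2 difference of MOCS3 was 2.83 in control cells and 3.57 in MAPKi-treated cells.

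**Figure D3:**
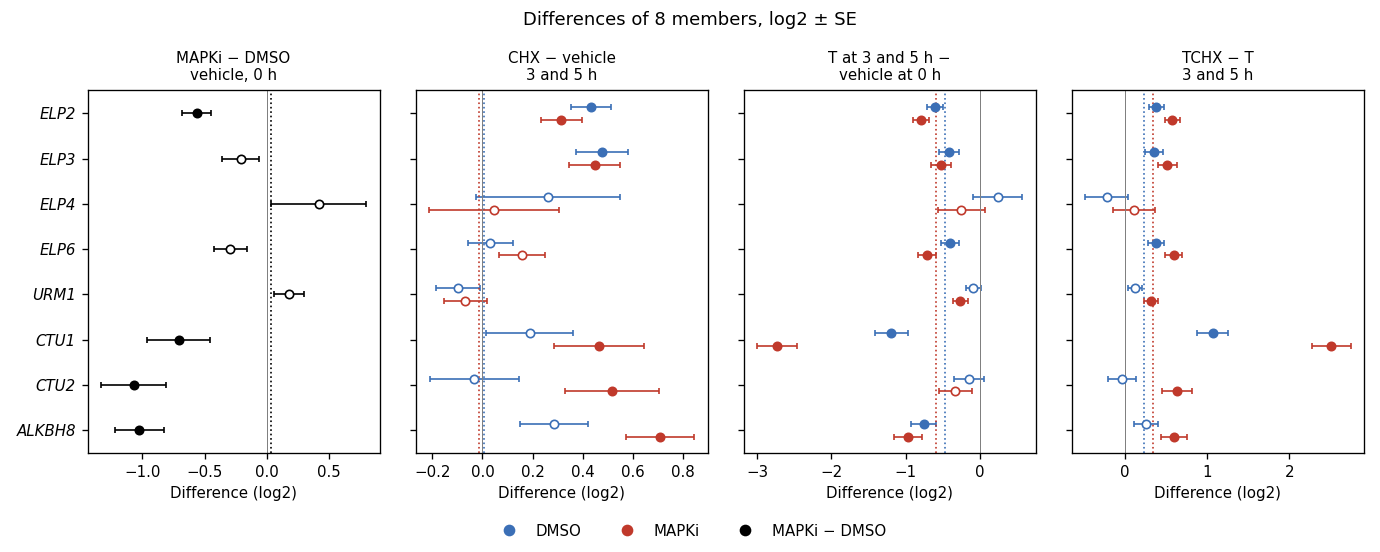
Log2 differences with standard errors (x axis) of 8 members (y axis) in 4 comparisons, namely MAPKi against control cells (black), cycloheximide against vehicle, triptolide against the initial level, and TCHX against triptolide, the last 3 in control cells (blue) and MAPKi-treated cells (red). Filled points passed an adjusted p of 0.05, open points did not, and dotted lines mark the median of all genes; CTU1 stands farthest from that median in the triptolide and TCHX panels, and CTU2 and ALKBH8 in the first.

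The index of translation-dependent mRNA decay (TDD index) is the normalised count with TCHX minus that with T, divided by the initial count. It can be read as a part lost in a translation-dependent way only where TCHX lies between T and the initial level. For CTU2 in MAPKi-treated cells at 5 h the index was 0.649, with 72.1% remaining under T and 137% under TCHX. It was averaged over 3 and 5 h for display, and the values at each of these times entered the limma fit over 11419 genes. The median over genes was 0.125 ± 0.0365 in control cells and 0.188 ± 0.0108 in MAPKi-treated cells (SD, n = 3).

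CTU2 had an index of 0.0141, 0.125 and −0.176 in control cells and of 0.468, 0.409 and 0.434 in MAPKi-treated cells. The groups did not overlap, and CTU2 went from a value above 16.7% of all genes to one above 86.5%. The difference was 0.45 (SE 0.14, unadjusted p = 0.00921, adjusted p = 0.210, limma), which did not pass the adjustment. CTU1 had the highest index of the members in both pretreatments, 0.561, 0.415 and 0.476 against 0.594, 0.772 and 0.614, above 94.5% and 97.0% of all genes. These groups did not overlap either, and the difference was 0.18 (SE 0.11, adjusted p = 0.500, limma).

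ELP2, ELP3, ELP6, ALKBH8 and URM1 had mean indices between 0.0873 and 0.238 in control cells and between 0.204 and 0.303 in MAPKi-treated cells, and each differed by less than 0.15. ELP4 had −0.197 ± 0.110 and 0.0857 ± 0.134 (SD, n = 3). The groups of ALKBH8 and ELP4 did not overlap either. The median over all genes was also higher in every MAPKi replicate than in every control replicate, so that a lack of overlap does not set CTU2 and CTU1 apart. The share of all genes whose index did not overlap between pretreatments was not counted. With limma, 0 of 8 members and 0 of 11419 genes passed, 0% of those tested, and 1 member, CTU2, and 1711 genes had an unadjusted p under 0.05. An ordinary linear model called 11 genes and 0 members.

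**Figure D4:**
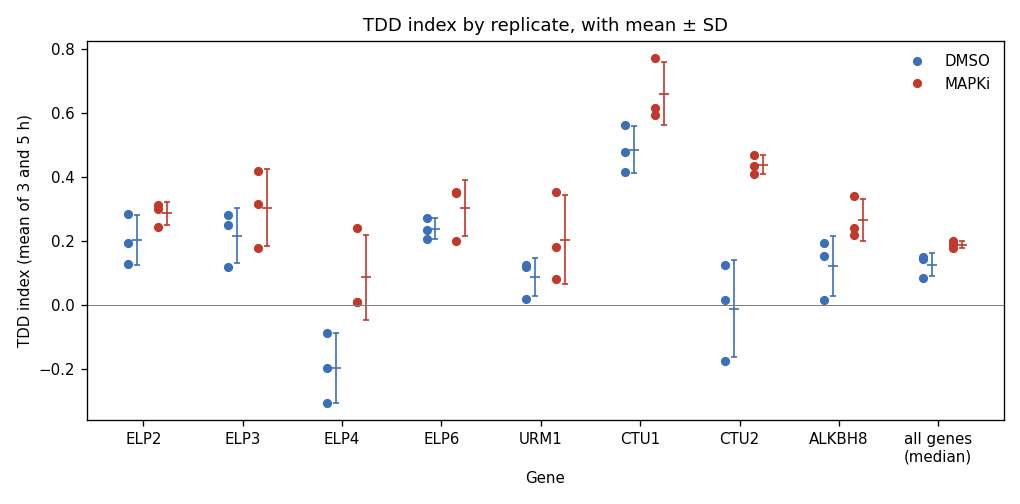
TDD index averaged over 3 and 5 h (y axis) for 8 members and for the median of all genes (x axis), with 1 point per replicate in control cells (blue) and MAPKi-treated cells (red) and the mean with its SD beside them. CTU1 is highest in both pretreatments, and the 3 points of CTU2 lie between −0.176 and 0.125 in control cells and between 0.409 and 0.468 in MAPKi-treated cells.

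Over the 32 groups the members did not share 1 pattern. CTU2 had its highest group mean, 38.5 ± 3.28 CPM (SD, n = 3), in control cells at 5 h of triptolide and its lowest, 12.2 ± 1.73 CPM, in MAPKi-treated cells at 3 h of vehicle. For CTU1 these were 22.3 ± 8.24 CPM in control cells at 5 h of CHX and 1.096 ± 0.164 CPM in MAPKi-treated cells at 5 h of triptolide. ALKBH8 ran from 11.7 ± 2.90 CPM (MAPKi, triptolide, 3 h) to 31.1 ± 4.33 CPM (control, triptolide, 0 h). ELP2 ran from 44.4 ± 2.80 CPM (MAPKi, vehicle, 3 h) to 114 ± 10.5 CPM (control, CHX, 5 h), and ELP3 had its lowest mean in MAPKi-treated cells in vehicle at 5 h and its highest in the same CHX group as ELP2. URM1 had both extremes in MAPKi-treated cells at 5 h, 141 ± 5.43 CPM with CHX and 258 ± 20.5 CPM with triptolide. These CPM rest on TMM, and the order of groups can differ on the scale of the stable genes. There the mean normalised count of URM1 in MAPKi-treated cells at 5 h was 1407 with CHX and 1122 with triptolide. That of CTU2 in control cells was 192 at 5 h of triptolide and 217 in vehicle at 0 h.

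Correlations of mean log2 CPM across groups are given as a description, since the groups share pretreatments, inhibitors and one normalisation. Over 32 groups, ELP2 and ALKBH8 had the highest Pearson correlation of any pair of members (0.872), which was 0.268 within the 16 control groups and 0.662 within the 16 MAPKi groups. CTU1 and CTU2, the subunits of 1 enzyme, had 0.438 over all groups, −0.658 within control and −0.146 within MAPKi groups. CTU2 and ALKBH8 went from 0.769 over all groups to −0.567 within control groups. ELP2 and ELP3 kept 0.800 and 0.534 within pretreatments. The 5 genes whose pattern was most like that of CTU2 among all genes tested were DNMT1 (0.964), RPA2 (0.958), NUP155 (0.954), MAD2L1 (0.953) and MARS1 (0.953), with correlations between 0.709 and 0.858 within control groups and between 0.732 and 0.846 within MAPKi groups.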

How the data were processed

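QuantSeq 3′ libraries were prepared by the authors from cytoplasmic RNA. The authors deposited raw counts, whole numbers of reads per gene without normalisation. The submitters' processing notes name fastp 0.20.1, HISAT2 2.2.1, HTSeq 0.13.5 and GRCh38.p13. Strand use in counting is not given in the sources used here, and no molecular identifiers are described, so reads copied from 1 molecule count separately.

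The counts were analysed with edgeR 4.0.16 in R 4.3.3. Of 44659 entries, 14948 were kept by filterByExpr. All 96 libraries entered 1 quasi-likelihood fit with a mean per group, contrasts were two-sided, and p-values were adjusted over all genes (Benjamini-Hochberg, threshold 0.05). Scaling was by TMM, or, in contrasts with triptolide, by DESeq2 1.42.0 size factors from 36 stable genes: an initial CPM over 0.2, at least 1.1 times that CPM at both 3 h and 5 h of triptolide, and a later CPM less than 10 times the initial, in every replicate of both pretreatments. CPM values use TMM library sizes. The TDD index was tested with limma 3.58.1, with time and replicate number as terms, over 11419 genes with a mean initial normalised count of at least 10 in each pretreatment. The values at 3 h and 5 h share their initial libraries. On counts simulated for MAPKi against DMSO in the vehicle arm at 0 h (13548 genes), at a mean of 50 or more counts edgeR called 64 of 64 genes changed 4-fold and 57 of 69 changed 2-fold, and below it 24 of 36 and 11 of 31, with 7 of 163 calls false. The recovery asked for was restricted to 4-fold changes at 50 or more counts after a first run. The simulation covered the vehicle and T arms at 0 and 5 h and gave every gene the same dispersion. It changed few genes, evenly up and down, whereas 45.9% of genes were called in that contrast of the data. Its rates of recovery and of false calls therefore need not hold for the data. Coordinates and coding sequences came from GENCODE on GRCh38.

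The members, the gene lists and the likeness rule (the 5 genes most correlated with CTU2, prior count 2) were chosen with earlier results of these data known. Genes outside the members are named only from these lists or that rule. Those of the other 3 arms at 0 h were chosen after seeing the data. The alternatives are described in the closing section.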

Additional observations from a re-analysis of the deposited data

Results flagged for a closer look

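The effect of 2 contrasts on CTU1 differed between the pretreatments by a test of the difference itself. The log2 fall under triptolide was larger in MAPKi-treated than in control cells, a difference of −1.54 (SE 0.36, adjusted p = 0.00528, edgeR), with alternatives from −1.79 to −1.30 and adjusted p from 0.00105 to 0.225. The rise from triptolide to triptolide plus cycloheximide was also larger after MAPKi, by 1.44 (SE 0.31, adjusted p = 0.000723, edgeR), with alternatives from 1.29 to 1.48 and adjusted p from 0.000196 to 0.0306. Both differences rest on the same triptolide libraries, of which those of MAPKi-treated cells at 5 h hold 7, 7 and 5 counts of CTU1. The other 7 members tested were not called in either difference, except CTU2 in the second without the filter on low counts. Groups of 3 are too small for a test of single outlying libraries.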

How the results depend on the processing

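Of 960 values of a member in a contrast under an alternative, 902 kept their direction and side of the threshold, or changed sign without passing in either. Of the rest, 44 lost a call, 7 gained one and 7 reversed. The alternatives to the vehicle arm at 0 h include the CHX, T and TCHX arms at 0 h, which are other libraries and not another processing. Gains in those arms were ELP6 (CHX and TCHX) and URM1 (T), and CTU1 lost its call in all 3. With TMM in place of stable genes, the counts of members called under triptolide became 2 in control cells and 2 in MAPKi-treated cells (CTU1 lower, URM1 higher). Of all genes, TMM called 33.2% (20.7% lower, the rest higher) and 40.2% (19.6% higher, 20.7% lower), against 50% (1.3% higher, 48.7% lower) and 57.4% (1.28% higher, 56.1% lower) with stable genes. The counts of TCHX against T became 1 and 1, where TMM called 22% (15% higher, 6.98% lower) and 34% (18.9% higher, 15.1% lower), against 28.9% (28.4% higher, 0.468% lower) and 42% (41.4% higher, 0.535% lower). The reversals were ELP3 (0.0623), ELP6 (0.0812) and URM1 (0.39) in control cells and ELP3 (0.12) and URM1 (0.38) in MAPKi-treated cells under triptolide with TMM, URM1 (0.10) with total counts in MAPKi-treated cells, and URM1 (−0.0690) in TCHX against T with TMM in MAPKi-treated cells. Total counts gave 3 members and 30.8% of all genes under triptolide in control cells, and 4 members and 30.4% in TCHX against T in MAPKi-treated cells. Without the filter on low counts, the difference in the TCHX effect called 2 members (CTU1 and CTU2) and 2.78% of the larger number of genes tested. By construction TMM centres on most genes, which were lower under triptolide on the scale of the stable genes.

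With 1 replicate left out at a time, the number of members called ranged from 2 to 4 for CHX in MAPKi-treated cells, from 0 to 1 for the difference in the fall under triptolide and from 1 to 3 for TCHX against T in control cells. Of all genes, these fits called 20.1% to 23.7%, 0.847% to 1.32% and 20% to 21.1%, against 29.8%, 3.17% and 28.9% with every replicate, so fewer genes were called throughout. In these fits 2 libraries per group remain. The replicate block left every count of members called as it was, among them 4 in the vehicle arm at 0 h. With the block, 46.7% of all genes were called in that arm at 0 h, against 45.9% without it. Libraries of the same number in different groups had a median correlation of deviations of 0.0142, against −0.00672 for different numbers. Both medians are small, but larger correlations were more frequent among pairs of the same number. Whether the numbers pair the samples is therefore not settled by these values. In the TDD model without the replicate block 0 members were called, as with it. At these depths the genes with few counts, ELP4 and CTU1 under triptolide, carry the largest standard errors, and ELP5 could not be compared.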
